A study of Mus musculus with 12 samples.

Results

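The enzymes that cut the extracellular matrix and the proteins that restrain them were followed in NIH-3T3 mouse fibroblasts, an established cell line, by measuring RNA on single-colour Illumina bead arrays. The genes were the matrix metalloproteinases (Mmp), the ADAMTS proteases, the ADAMTS-like proteins (Adamtsl) and the tissue inhibitors of metalloproteinases (Timp). They were chosen by symbol, as Mmp, Adamts, Adamtsl or Timp followed only by digits, which took 85 of 45281 probes and 44 of the 19057 genes with a symbol of their own. Every group carried PPARγ2 delivered by a lentivirus and grew in medium with blasticidin. The 4 groups of 3 arrays were E157D receptor with rosiglitazone, E157D receptor with DMSO, WT receptor with rosiglitazone and WT receptor with DMSO. Rosiglitazone, a PPARγ agonist, was used at 20 µM for 24 h, and DMSO was its vehicle. No group without added PPARγ2 was analysed here, and the labels do not name the promoter that drives the receptor. The design text describes 3 independent experiments.

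MMPs are zinc-dependent endopeptidases, secreted or held at the cell surface, that are made as inactive precursors and cleave collagens, gelatin, proteoglycans and other matrix proteins. ADAMTS proteases are secreted relatives with thrombospondin motifs. Some cut proteoglycans such as aggrecan and versican, others process procollagens, and the ADAMTS-like proteins lack the catalytic domain. TIMPs bind the active site of MMPs, and Timp3, which stays in the matrix, also inhibits several ADAMTS and ADAM proteases. In fibroblasts and fat tissue these enzymes take part in remodelling the pericellular matrix while preadipocytes turn into fat cells.

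Of the 44 genes, 21 had a probe detected above the negative controls (detection p under 0.05) on at least 3 arrays, and these were tested. They were 8 of 19 Mmp genes, 9 of 17 Adamts genes, 1 of 4 Adamtsl genes and 3 of 4 Timp genes, and 14 of them were detected on all 12 arrays. The genes that passed on fewer arrays were Adamts6, Adamts13, Adamts15, Adamts16, Mmp19, Mmp23 and Mmp28. A gene that passes only through a group in which it is high is bound to differ, and counting only tested genes does not remove this. The counts below are of the 21 tested genes and not of all 44. They include calls for Adamts16, detected on 0 of 3 WT rosiglitazone arrays, and Mmp23, detected on 0 of 3 WT DMSO arrays. No probe was detected on any array for 16 genes, among them the collagenase Mmp8, the stromelysin Mmp3, the macrophage elastase Mmp12 and Timp4. Another 7 were detected on 1 or 2 arrays. Mmp17, Adamts17 and Adamts20 were detected on 2 arrays, and Mmp10, the collagenase Mmp13, Adamts10 and Adamtsl3 on 1. Mmp7, Mmp16, Mmp20, Mmp21, Mmp25, Adamts3, Adamts8, Adamts14, Adamts18, Adamts19, Adamtsl1 and Adamtsl2 completed the genes detected on no array.

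Each array had 16633 to 17924 detected probes, arrays of the same group correlated at 0.988 to 0.994 and no array duplicated another. The small number of arrays limits precision. All 11 fibroblast markers were detected on all 12 arrays. None of 7 leukocyte, 4 endothelial or 5 epithelial markers was detected on every array. Of these, 4 leukocyte, 3 endothelial and 3 epithelial markers were detected on none, and 2 leukocyte markers had no probe. The epithelial Krt8 was detected on 11 arrays and Cdh1 on 3, the leukocyte Lyz2 on 3 and the endothelial Cdh5 on 1. The summed normalized intensity of 5 adipocyte markers with a probe was 261 to 316 in E157D rosiglitazone arrays and 137 to 139 in E157D DMSO arrays. It was 1860 to 2470 in WT rosiglitazone arrays and 187 to 221 in WT DMSO arrays. Adipoq, Plin1, Fabp4 and Cidec were each detected on 3 WT rosiglitazone arrays, while in WT DMSO arrays only Adipoq was. Adipoq and Cidec were detected on 3 E157D rosiglitazone arrays, and none of these 4 on an E157D DMSO array. The summed intensity of the 11 fibroblast markers was 58400 to 68300 in E157D rosiglitazone arrays and 85300 to 91100 in E157D DMSO arrays. It was 37700 to 49700 in WT rosiglitazone arrays and 76800 to 84500 in WT DMSO arrays. These markers move with the results below, and their part in them was not tested. The leukocyte sum was 134 to 141 in E157D rosiglitazone arrays, 148 to 165 in E157D DMSO arrays, 131 to 148 in WT rosiglitazone arrays and 147 to 156 in WT DMSO arrays. The endothelial sum lay between 108 and 137 in all groups, and the epithelial sum between 159 and 175.

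With the WT receptor, rosiglitazone lowered 10 of the 21 tested genes and raised 1, and the lowered genes included every tested inhibitor. Calls were made at an adjusted p under 0.05, after limma's moderated test on log2 intensities and Benjamini-Hochberg adjustment over 13006 features, and 26.7% of all features were called in this comparison. The lower calls made up 14.4% of all features and the higher calls 12.3%. The lower genes were Timp1, Timp2, Timp3, Mmp2, Mmp14, Mmp24, Adamts4, Adamts7, Adamts16 and Adamtsl4, and the higher gene was Mmp23. By family, 3 of 3 inhibitors fell, 3 of 8 Mmp genes fell and 1 rose, 3 of 9 Adamts genes fell, and the Adamtsl gene fell. The median log2 change of the 21 genes was -0.66, or -0.42 with undetected groups set at their detection floor, against -0.03 over all features, or -0.01 at the floor. The arrays did not overlap between the groups for 11 members that were lower and 1 that was higher, where this held for 22% and 18.5% of all features. In a population of cells, fewer cells of a type and less RNA per cell cannot be told apart.

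All 3 tested inhibitors fell, and each was detected on all 12 arrays. Timp3, the matrix-bound inhibitor, had log2 intensities of 10.94, 12.15 and 11.83 in WT rosiglitazone arrays, against 12.76, 13.11 and 13.33 in WT DMSO arrays. All rosiglitazone arrays lay below all DMSO arrays. It fell by 1.43 ± 0.29 on the log2 scale (limma standard error, n = 3 and 3, adjusted p = 0.00406). Timp2, which inhibits MMPs and also takes part with MT1-MMP in activating the Mmp2 precursor, read 11.9, 12.4 and 12.36 in WT rosiglitazone arrays and 13.13, 13.19 and 13.44 in WT DMSO arrays. The groups did not overlap, and Timp2 fell by 1.03 ± 0.16 (adjusted p = 0.000642). Timp1, a secreted inhibitor of most soluble MMPs, read 11.58, 11.37 and 11.52 in WT rosiglitazone arrays and 12.36, 12.07 and 12 in WT DMSO arrays. These values were also separate, and Timp1 fell by 0.66 ± 0.14 (adjusted p = 0.00602). A further probe for Timp1 gave -0.74 ± 0.13 (adjusted p = 0.00153 over all kept probes), and a further Timp3 probe gave -1.14 ± 0.28 (adjusted p = 0.0122). Another Timp3 probe with a mean of 5.87, near the detection limit, gave -0.07 ± 0.15 (adjusted p = 0.771).

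The sequences in front of some of the genes that fell with the WT receptor are shown so that their sequence features can be compared. Windows of 250 bases before the RefSeq start (assembly GRCm38.p6) were at hand for 13 of the 21 tested genes, 14 windows in all, with none for Adamts4, Adamts6, Adamts7, Adamts15, Adamts16, Mmp2, Mmp9 and Mmp19. The windows of the 3 inhibitors, of Mmp14 and of Adamtsl4 follow 5′ to 3′ in the gene's direction, and capitals mark the GC box, GGGCGG or its reverse complement.
Timp1 promoter, chrX:20869916-20870165, plus strand: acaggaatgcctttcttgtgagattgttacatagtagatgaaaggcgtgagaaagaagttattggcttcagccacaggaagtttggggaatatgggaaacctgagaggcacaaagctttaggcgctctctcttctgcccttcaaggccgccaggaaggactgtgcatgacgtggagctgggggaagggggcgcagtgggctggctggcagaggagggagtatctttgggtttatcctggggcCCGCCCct
Timp2 promoter, chr11:118355412-118355661, minus strand: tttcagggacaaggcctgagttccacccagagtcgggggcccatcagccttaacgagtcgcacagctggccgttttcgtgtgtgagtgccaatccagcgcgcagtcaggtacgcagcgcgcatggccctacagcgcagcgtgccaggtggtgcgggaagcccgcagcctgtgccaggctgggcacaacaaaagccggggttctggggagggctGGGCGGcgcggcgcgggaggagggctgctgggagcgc
Timp3 promoter, chr10:86300162-86300411, plus strand: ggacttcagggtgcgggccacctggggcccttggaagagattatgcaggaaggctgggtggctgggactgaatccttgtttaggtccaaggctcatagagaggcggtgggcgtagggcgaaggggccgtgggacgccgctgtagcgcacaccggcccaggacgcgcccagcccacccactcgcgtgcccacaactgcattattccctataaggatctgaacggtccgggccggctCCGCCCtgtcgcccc
Mmp14 promoter, chr14:54431348-54431597, plus strand: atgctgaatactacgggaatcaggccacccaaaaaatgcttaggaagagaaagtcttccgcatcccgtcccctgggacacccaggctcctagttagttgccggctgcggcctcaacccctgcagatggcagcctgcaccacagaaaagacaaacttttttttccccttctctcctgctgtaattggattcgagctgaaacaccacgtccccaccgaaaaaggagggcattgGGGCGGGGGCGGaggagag
Adamtsl4 promoter, chr3:95687918-95688167, minus strand: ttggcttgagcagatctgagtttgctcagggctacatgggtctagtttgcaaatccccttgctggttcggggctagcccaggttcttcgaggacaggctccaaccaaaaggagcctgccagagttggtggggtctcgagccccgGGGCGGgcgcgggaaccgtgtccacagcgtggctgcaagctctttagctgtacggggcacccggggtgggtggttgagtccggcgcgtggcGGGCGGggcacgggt
Motifs were sought on both strands. The GC box, bound by Sp factors, was in 10 of the 14 windows and in 32.7% of 32851 mouse promoter windows of the same length. The 14 are windows of tested genes, called or not, and those of Mmp23 overlap. The 32851 windows were not limited to genes detected in these cells, so their shares are not those of a like set. Mmp24, which fell and is not shown, held 3 GC boxes. Of genes never called, Mmp11, Mmp28, Adamts1 and Adamts9 held it and Adamts13 did not. Mmp23 and Adamts12, both called, held none. The AP-1 motif TGANTCA was in 0 of the 14 and in 6.75% of all windows. The PPAR response element, a direct repeat of AGGTCA with 1 base between the copies, was in 0 of 14 and in 0.0335% of all. The motif AGGTCA itself, which lies inside that repeat, was in 0 of 14 and in 14% of all. TATAAA was in 1, that of Adamts1, and in 12.4% of all. A match is only a run of letters, and the lack of one holds for these windows alone.

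**Figure D1:**
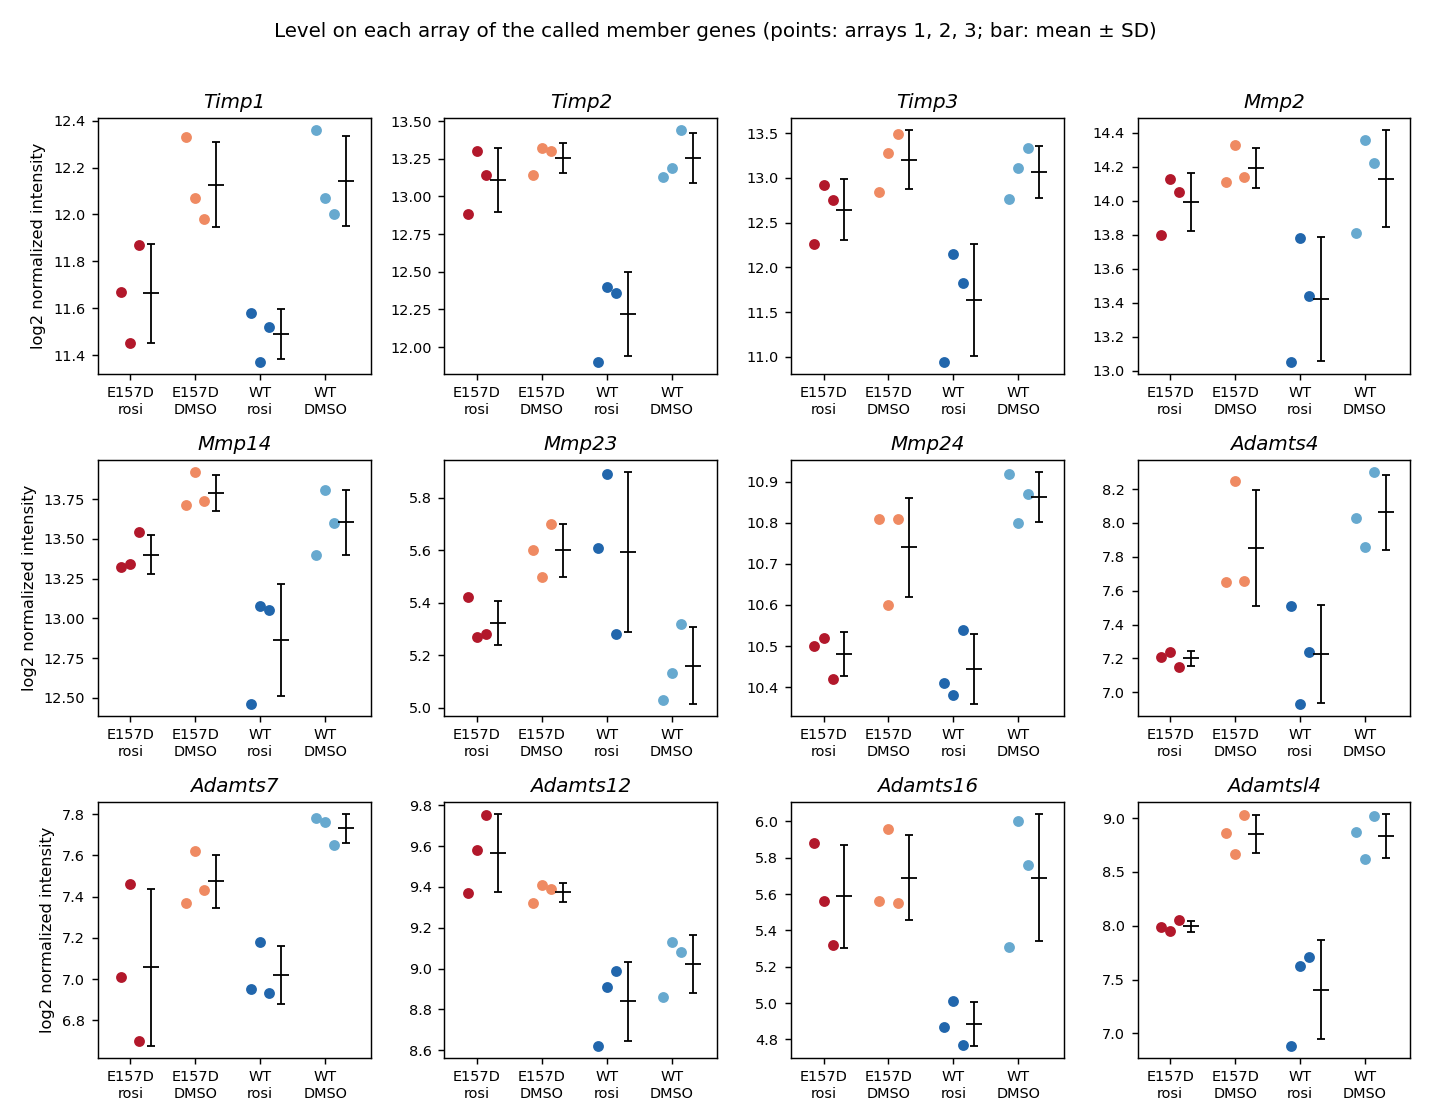
Log2 normalized intensity of the 12 genes with a call in at least 1 comparison or of the Timp family, on each array (points) with group mean and SD (n = 3), for E157D rosiglitazone, E157D DMSO, WT rosiglitazone and WT DMSO. Timp2 lies at 11.9 to 12.4 in WT rosiglitazone arrays and at 13.13 to 13.44 in WT DMSO arrays, and E157D rosiglitazone arrays lie at 12.88 to 13.3.

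Among the proteases, the gelatinase Mmp2 and its membrane-bound activator Mmp14 (MT1-MMP) fell with the WT receptor. Mmp2 had log2 intensities of 13.05, 13.78 and 13.44 in WT rosiglitazone arrays and 13.81, 14.36 and 14.22 in WT DMSO arrays. No rosiglitazone array reached the DMSO range, and Mmp2 fell by 0.71 ± 0.19 (adjusted p = 0.0165). Mmp14 read 12.46, 13.08 and 13.05 in WT rosiglitazone arrays and 13.4, 13.81 and 13.6 in WT DMSO arrays, a fall of 0.74 ± 0.17 (adjusted p = 0.00707). The groups were separate here too. Mmp24 (MT5-MMP), another membrane-type enzyme, read 10.41, 10.38 and 10.54 in WT rosiglitazone arrays and 10.92, 10.8 and 10.87 in WT DMSO arrays. It fell by 0.42 ± 0.10 (adjusted p = 0.00878). Of the 4 probes for Mmp24, 1 passed the detection filter, and the others were detected on no array. Of the 2 probes for Mmp14, 1 passed. Mmp23, a membrane-anchored family member, was below detection on all 3 WT DMSO arrays, and 2 of 3 WT rosiglitazone arrays detected it. Its values were 5.61, 5.89 and 5.28 in WT rosiglitazone arrays and 5.03, 5.13 and 5.32 in WT DMSO arrays, which overlap. Against the lowest detected level on the WT DMSO arrays, Mmp23 was at least 1.1-fold higher (adjusted p = 0.048). That call was lost under 18 of the 21 alternative settings that tested the gene.

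The calls for Mmp2, Mmp14 and Mmp24 did not hold in every setting. When arrays were scaled by their medians and not by quantiles, the adjusted p was 0.0786 for Mmp2, 0.0522 for Mmp14 and 0.177 for Mmp24. The Mmp2 call was also lost without WT rosiglitazone array 1, WT DMSO array 2 or WT DMSO array 3, at adjusted p up to 0.0688. With only the compared groups fitted it was lost as well (adjusted p = 0.0566). Mmp9, the other gelatinase, changed by -0.88 ± 0.40 (adjusted p = 0.128), Mmp19 by 0.60 ± 0.26 (adjusted p = 0.111) and Mmp28 by -0.25, and none of these passed. Mmp11, a stromelysin by name, changed by -0.05 ± 0.17 (adjusted p = 0.858).

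Of the ADAMTS genes, the aggrecan-cleaving Adamts4 read 7.51, 6.93 and 7.24 in WT rosiglitazone arrays and 8.03, 7.86 and 8.3 in WT DMSO arrays. It fell by 0.84 ± 0.19 (adjusted p = 0.00644), with all rosiglitazone arrays below the DMSO arrays. Adamts7, a protease that cleaves cartilage oligomeric matrix protein, read 6.95, 7.18 and 6.93 in WT rosiglitazone arrays and 7.78, 7.76 and 7.65 in WT DMSO arrays, again with no overlap. It fell by 0.71 ± 0.17 (adjusted p = 0.00841). Adamts16 was below detection on all 3 WT rosiglitazone arrays, at 4.87, 5.01 and 4.77, and was detected on 2 of 3 WT DMSO arrays, at 5.31, 6 and 5.76. Its fall is a bound of at least 1.14-fold lower (adjusted p = 0.00944). Of the 3 probes for Adamts16, 1 passed the detection filter, and the others were detected on no array. Adamtsl4, which binds fibrillin microfibrils, read 6.88, 7.63 and 7.71 in WT rosiglitazone arrays and 8.87, 8.62 and 9.02 in WT DMSO arrays. It fell by 1.43 ± 0.20 (adjusted p = 0.000363). The versican-cleaving Adamts1 changed by -1.39 ± 0.48 (adjusted p = 0.0501), and its further probes gave -1.57 ± 0.53 (adjusted p = 0.0514) and -0.55 ± 0.38 (adjusted p = 0.323). Adamts12, which like Adamts7 cleaves cartilage oligomeric matrix protein, changed by -0.19 ± 0.13 (adjusted p = 0.336). Adamts9 changed by -0.05 ± 0.32 (adjusted p = 0.939), and Adamts15 by 0.00 ± 0.28 (adjusted p = 0.993). Adamts6 and Adamts13 were below detection on all 3 WT rosiglitazone arrays, so no change is given for them.

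The arrays of the 3 replicate numbers shifted together. With the WT receptor the deviations of same-numbered arrays from their group means correlated at 0.129 to 0.239, so the numbers pair the arrays there. This rests on the data, since no label states it. Number 1 was the lowest array of all 4 groups for 10 of the 21 members, 47.6%, against 5.38% of all features, and for numbers 2 and 3 this held for 0 members. The 10 were Timp2, Timp3, Mmp2, Mmp9, Mmp14, Mmp19, Adamts1, Adamts9, Adamts12 and Adamts15. With the replicate number as a block, 13 members were called with the WT receptor, 12 lower and 1 higher. The block also raised the number of calls over all features in this comparison, so a gain in calls was not particular to the members. The block added Mmp9 (adjusted p = 0.000347), Adamts1 (adjusted p = 0.00312) and the rise of Mmp19 (adjusted p = 0.032), and lost Mmp23 (adjusted p = 0.0624).

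With the E157D receptor, rosiglitazone called 1 of the 21 genes, Adamtsl4, against 4.1% of all features, of which 1.79% were lower and 2.31% higher. Adamtsl4 read 7.99, 7.95 and 8.05 in E157D rosiglitazone arrays and 8.86, 8.67 and 9.03 in E157D DMSO arrays, with no overlap. It fell by 0.85 ± 0.20 (adjusted p = 0.0337), and the call was lost when any 1 of the 6 E157D arrays was left out, at adjusted p up to 0.126. Without WT rosiglitazone array 1, 2 members were called, and the share of all features called in that setting is not given here. At an unadjusted p under 0.05, limma gave 9 of 21 genes, 42.9%, all with a negative change, against 18.5% of all features in either direction. The median log2 change of the 21 genes was -0.28, against -0.01 over all features. The arrays did not overlap for 8 of the 21 genes, all lower, where 12.8% of all features were lower in this way and 11.9% higher.

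None of the 3 inhibitors was called with E157D, and 1 of them had an unadjusted p under 0.05. Timp1 read 11.67, 11.45 and 11.87 in E157D rosiglitazone arrays and 12.33, 12.07 and 11.98 in E157D DMSO arrays. Its groups were separate, and it changed by -0.46 ± 0.14 (adjusted p = 0.103). Timp2 read 12.88, 13.3 and 13.14 in E157D rosiglitazone arrays and 13.14, 13.32 and 13.3 in E157D DMSO arrays. Those values overlap, with a change of -0.15 ± 0.16 (adjusted p = 0.687). Timp3 read 12.26, 12.92 and 12.75 in E157D rosiglitazone arrays and 12.84, 13.28 and 13.49 in E157D DMSO arrays. They overlap too, with a change of -0.56 ± 0.29 (adjusted p = 0.339).

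Of the proteases with E157D, Adamts4 read 7.21, 7.24 and 7.15 in rosiglitazone arrays and 7.65, 8.25 and 7.66 in DMSO arrays, and changed by -0.66 ± 0.19 (adjusted p = 0.0761). Mmp11 read 8.03, 8.25 and 8.23 in rosiglitazone arrays and 8.54, 8.92 and 8.82 in DMSO arrays, and changed by -0.59 ± 0.17 (adjusted p = 0.0811). Both were separate but not called. Mmp2 read 13.8, 14.13 and 14.05 in E157D rosiglitazone arrays and 14.11, 14.33 and 14.14 in E157D DMSO arrays, which overlap (-0.20 ± 0.19, adjusted p = 0.628). Mmp14 read 13.32, 13.34 and 13.54 in E157D rosiglitazone arrays and 13.71, 13.92 and 13.74 in E157D DMSO arrays, which are separate (-0.39 ± 0.17, adjusted p = 0.234). Mmp24 changed by -0.26 ± 0.10 (adjusted p = 0.192), Adamts7 by -0.42 ± 0.17 (adjusted p = 0.202) and Mmp23 by -0.28 ± 0.15 (adjusted p = 0.344). Adamts1 had the largest change, -1.33 ± 0.48 (adjusted p = 0.157), and Adamts9 changed by -0.76 ± 0.32 (adjusted p = 0.232).

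**Figure D2:**
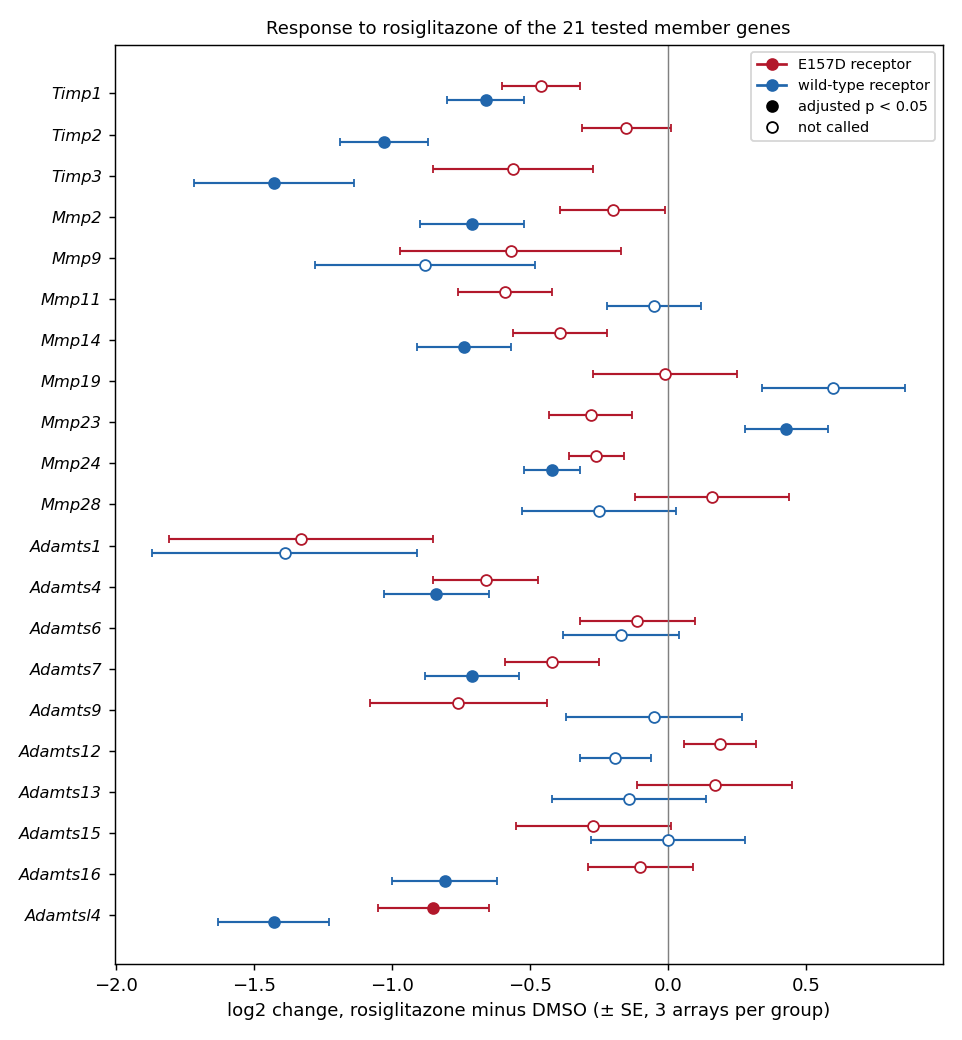
Log2 change under rosiglitazone (± limma standard error) of the 21 tested genes with the E157D and the WT receptor; filled points passed adjusted p under 0.05. Adamtsl4 is filled for both receptors, at -0.85 and -1.43, and Timp1, Timp2 and Timp3 are filled only for WT. With WT, Adamts6, Adamts13, Adamts16 and Mmp23 rest on a group below detection, as Adamts15 does with E157D.

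Proteases and inhibitors were set against each other by the mean change of the 17 tested proteases (8 Mmp, 9 Adamts) and of the 3 Timps, as a description with no test. With the E157D receptor, rosiglitazone moved the proteases by -0.32 and the inhibitors by -0.39, a difference of 0.07. With the WT receptor the proteases moved by -0.37 and the inhibitors by -1.04, a difference of 0.67. These means hide members that ran apart. Among the proteases, Mmp19 changed by -0.01 ± 0.26 with E157D and by 0.60 ± 0.26 with WT, and Adamts9 by -0.76 ± 0.32 with E157D and by -0.05 ± 0.32 with WT. Whether the class means differ between the receptors was not tested. With the 10 proteases detected on all 12 arrays, the difference was -0.11 for E157D and 0.44 for WT. After centring each gene on its mean, the protease minus inhibitor value was 0.01, 0.02 and -0.18 in E157D rosiglitazone arrays and -0.23, 0.02 and -0.16 in E157D DMSO arrays. It was 0.53, 0.29 and 0.43 in WT rosiglitazone arrays and -0.46, -0.04 and -0.24 in WT DMSO arrays. The WT rosiglitazone arrays lay above all others, and those of the other groups overlapped.

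**Figure D3:**
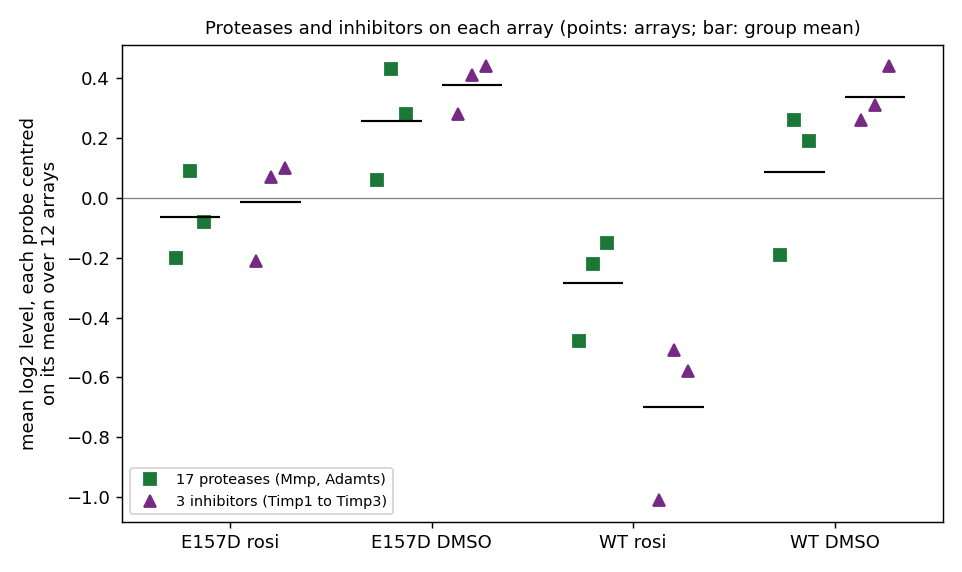
Mean centred log2 intensity of the 17 proteases and of the 3 inhibitors on each array (points) with group mean (bar, n = 3), for E157D rosiglitazone, E157D DMSO, WT rosiglitazone and WT DMSO. The inhibitors average -0.70 ± 0.27 (mean ± SD, SD not drawn) in WT rosiglitazone arrays and 0.34 ± 0.09 in WT DMSO arrays. The proteases average -0.28 ± 0.17 in WT rosiglitazone arrays and 0.09 ± 0.25 in WT DMSO arrays.

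Between the receptors in DMSO, 0 of the 21 genes were called, where 1.12% of all features were (0.423% higher and 0.7% lower), and limma gave 2 with an unadjusted p under 0.05, 9.52% of the members against 11% of all features. They were Adamts12, higher in E157D arrays by 0.35 ± 0.13 (adjusted p = 0.336), and Mmp23, at least 1.1-fold higher in E157D arrays (adjusted p = 0.243). Timp2 differed by 0.00 ± 0.16, with a 95% interval from -0.34 to 0.34. The arrays did not overlap for 2 genes that were higher, the same pair, and for Adamts7, which was lower, where 8.7% and 8.38% of all features were separate in these directions. The median difference was 0.11, against 0.01 over all features.

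Under rosiglitazone, 5 of the 21 genes differed between the receptors, all higher in E157D arrays, where 19.8% of all features were called, 10.5% higher and 9.26% lower. The arrays did not overlap for 7 genes that were higher and 1 that was lower, where 19.8% and 16.4% of all features were. This comparison shares the WT rosiglitazone arrays with the WT response above, and the rosiglitazone arrays of E157D with its own. From the array values given above, Timp2 was higher by 0.89 ± 0.16 (adjusted p = 0.00217) and Timp3 by 1.01 ± 0.29 (adjusted p = 0.0311), both with separate groups. Adamts12 read 9.37, 9.58 and 9.75 in E157D rosiglitazone arrays and 8.62, 8.91 and 8.99 in WT rosiglitazone arrays. Its groups were separate, with a difference of 0.73 ± 0.13 (adjusted p = 0.00261). Of the 3 probes for Adamts12, 1 passed the detection filter, and the others were detected on no array. Mmp14 was higher by 0.53 ± 0.17 (adjusted p = 0.042), and Adamts16, below detection in WT rosiglitazone arrays, was at least 1.06-fold higher (adjusted p = 0.0233). Adamts16 was detected on 2 of 3 E157D rosiglitazone arrays, at 5.88, 5.56 and 5.32. Mmp2 at 0.57 ± 0.19 (adjusted p = 0.0539) and Adamtsl4 at 0.59 ± 0.20 (adjusted p = 0.0545) did not pass. Of 22 alternative settings, Mmp2 passed in 6 (adjusted p = 0.00608 with the replicate block) and Adamtsl4 in 8 (adjusted p = 0.0391 with the block and 0.00954 with scaling by medians). Timp1 differed by 0.18 ± 0.14 (adjusted p = 0.434), so of the inhibitors 2 of 3 passed. The median difference was 0.31, or 0.18 at the floor, against 0.02 over all features. Mmp11 ran the other way, at -0.43 ± 0.17 (adjusted p = 0.104). Of these calls, Timp2 and Adamts12 held without each array in turn. Timp3 lost its call without WT rosiglitazone array 1, E157D rosiglitazone array 2 or E157D rosiglitazone array 3 (adjusted p up to 0.112). It also lost it with no filter on probes (adjusted p = 0.0543), with only the compared groups fitted (adjusted p = 0.0645) and with the mean over its kept probes, which gave 0.51 (adjusted p = 0.0884). Its further probes gave 0.69 ± 0.28 (adjusted p = 0.116) and, for the one near the detection limit, -0.18 ± 0.15 (adjusted p = 0.431). Adamts16 lost it without WT rosiglitazone array 1 or 3 or E157D rosiglitazone array 1 or 2 (adjusted p up to 0.0821), and with the authors' processed table (adjusted p = 0.0839). Mmp14 lost it without WT rosiglitazone array 1, WT DMSO array 3, E157D DMSO array 1 or 3, or any 1 of the E157D rosiglitazone arrays (adjusted p up to 0.148). It also lost it with median scaling (adjusted p = 0.055) and with the authors' processed table (adjusted p = 0.0591). The same held with no filter on probes (adjusted p = 0.0707) and with only the compared groups fitted (adjusted p = 0.0911). Only 2 members were called without WT rosiglitazone array 1 or without E157D rosiglitazone array 2, 3 without E157D rosiglitazone array 1 or array 3, and 7 without WT rosiglitazone array 2. The shares of all features called in these settings are not given here. A general shift in calls is therefore not separated from one of the members.

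**Figure D4:**
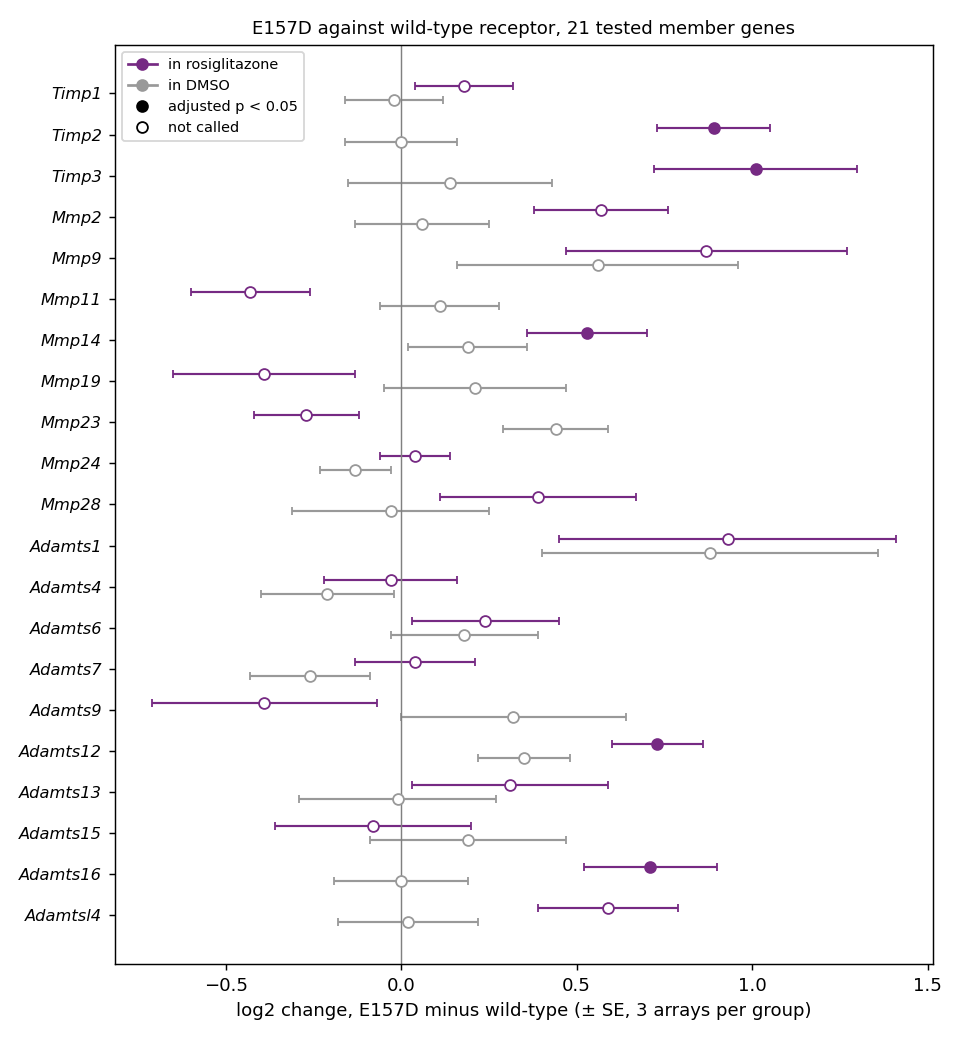
Log2 difference of E157D minus WT (± limma standard error) for the 21 tested genes under rosiglitazone and in DMSO; filled points passed adjusted p under 0.05. Adamts12 lies at 0.73 under rosiglitazone and 0.35 in DMSO, and Timp2 at 0.89 under rosiglitazone and 0.00 in DMSO. Adamts6, Adamts13, Adamts15 and Adamts16 under rosiglitazone and Mmp23 in DMSO rest on a group below detection.

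The difference of the rosiglitazone responses, E157D minus WT, was called for 0 of the 21 genes, against 2.38% of all features (0.884% with a positive and 1.5% with a negative difference), and limma gave 4 with an unadjusted p under 0.05, 19% of the members against 15.7% of all features. The median was 0.29 over the 21 genes, or 0.18 with undetected groups at the detection floor, and 0.02 over all features. Timp2 had the smallest p, with a difference of 0.89 ± 0.22 (95% interval 0.40 to 1.37, adjusted p = 0.0625). For Timp3 it was 0.87 ± 0.41 (interval -0.04 to 1.77, adjusted p = 0.341) and for Timp1 0.19 ± 0.20 (interval -0.25 to 0.64, adjusted p = 0.713). The intervals of Timp1 and Timp3 hold both no difference and a sizeable one. The other genes under an unadjusted p of 0.05 were Mmp23 at -0.71 ± 0.21 (adjusted p = 0.105), Adamts16 at 0.71 ± 0.27 (adjusted p = 0.226) and Mmp11 at -0.54 ± 0.24 (adjusted p = 0.305). Mmp23 and Adamts16 were each below detection in 1 WT group, so the values given for them here are not measured differences. No bound is given for them in this comparison. Without WT rosiglitazone array 3, Mmp23 passed (adjusted p = 0.0391). Timp2 passed in 5 of 21 alternative settings, the replicate block among them (adjusted p = 0.017). Timp1 and Timp3, called with WT and not with E157D, were not shown to respond differently in any of them.

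Genes around these enzymes were counted from 4 lists. Of the activators, receptors and inhibitors of these proteases, 8 of 16 were tested, and with WT rosiglitazone lowered 5 and raised 0, with a median of -0.44 against -0.03 over all features, of which 14.4% were lower and 12.3% higher. Reck, a membrane-anchored inhibitor of several MMPs, fell by 1.05 ± 0.21 (adjusted p = 0.00335). Plat, the tissue plasminogen activator, fell by 1.19 ± 0.12 (adjusted p = 5.83e-05). Furin, a convertase that activates the membrane-type MMP precursors, fell by 0.46 ± 0.11 (adjusted p = 0.00858), and Lrp1, an endocytic receptor that clears MMPs and TIMPs, by 0.59 ± 0.15 (adjusted p = 0.0126). With E157D 0 of the 8 were called, against 4.1% of all features, and 2 had an unadjusted p under 0.05, against 18.5%. These were Plaur, which changed by 0.85 ± 0.24 (adjusted p = 0.0727), and Pcolce, which changed by -0.36 ± 0.12 (adjusted p = 0.118). In that comparison Reck changed by 0.18 ± 0.21 (adjusted p = 0.712) and Plat by 0.13 ± 0.12 (adjusted p = 0.641). Under rosiglitazone, Reck was higher in E157D than in WT arrays by 1.75 ± 0.21 (adjusted p = 0.000133) and Plat by 1.35 ± 0.12 (adjusted p = 1.91e-05). The difference of the responses was called for Plat alone of the 8, against 2.38% of all features. It was 1.32 ± 0.17 for Plat (adjusted p = 0.00234) and 1.23 ± 0.29 for Reck (adjusted p = 0.0526).

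Of the ADAM and astacin proteases, 6 of 11 were tested, and 3 fell and 0 rose with WT, where 14.4% of all features were lower and 12.3% higher. Bmp1, the procollagen C-proteinase, fell by 1.15 ± 0.11 (adjusted p = 3.33e-05) with WT and by 0.69 ± 0.11 (adjusted p = 0.00418) with E157D. With E157D it was the only one of the 6 called, against 4.1% of all features. Adam17, which sheds cell-surface proteins, fell by 0.44 ± 0.10 (adjusted p = 0.00793) with WT, and Adam23 by 0.45 ± 0.10 (adjusted p = 0.00685). In DMSO, Adam23 was lower in E157D than in WT arrays by 0.57 ± 0.10 (adjusted p = 0.0171). Of 15 tested matrix substrates, of 20 listed, 9 fell and 2 rose with WT, against 26.7% of all features called in either direction. With E157D 1 fell and 0 rose, against 1.79% of all features lower and 2.31% higher. Fn1, fibronectin, fell by 0.91 ± 0.22 (adjusted p = 0.0428) with E157D and by 1.45 ± 0.22 (adjusted p = 0.00072) with WT, and Dcn, decorin, fell by 1.43 ± 0.17 (adjusted p = 0.000135) with WT. Under rosiglitazone, 8 of the 15 were higher in E157D arrays and 1 lower, where 10.5% of all features were higher and 9.26% lower. The median difference was 0.55, against 0.02 over all features. Tnc, tenascin C, was higher in E157D arrays by 1.55 ± 0.14 (adjusted p = 1.4e-05) under rosiglitazone and by 0.65 ± 0.14 (adjusted p = 0.0412) in DMSO. Of 12 tested transcription factors known at MMP promoters, of 15 listed, 3 fell and 1 rose with WT, a share near the 26.7% of all features called in either direction. Fosl2, an AP-1 subunit, fell by 1.18 ± 0.16 (adjusted p = 0.00028), Junb, another, fell by 0.66 ± 0.17 (adjusted p = 0.0121), and Cebpb rose by 0.36 ± 0.10 (adjusted p = 0.0225). With E157D 0 of the 12 were called, against 4.1% of all features, and 3 had an unadjusted p under 0.05, against 18.5%. Fosl2 changed by -0.57 ± 0.16 (adjusted p = 0.0643) there. Under rosiglitazone, Cebpb was lower in E157D than in WT arrays by 0.57 ± 0.10 (adjusted p = 0.00259). It was the only 1 of the 12 called in that comparison, against 19.8% of all features.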

How the data were processed

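RNA of 12 NIH-3T3 cultures was measured on Illumina bead arrays. The authors deposited an intensity and a detection p-value per probe and array, per the file headers, with no normalization between arrays. A further deposited table of the authors' processed intensity values, whose method no label states, was used for an alternative. Raw intensities went through neqc of limma 3.58.1 (R 4.3.3), which does normexp correction from the negative controls implied by the detection p-values, adds an offset (16) and quantile-normalizes on the log2 scale, so that a change common to all genes cannot show. Probes with a detection p below 0.05 on 3 or more arrays were kept, and each gene took its kept probe with the highest mean, which gave 13006 features. The platform annotation gives 1 symbol to 34885 probes, several to 18 and none to 10378, and 34807 matched a RefSeq table by gene number.

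The model had 4 group means (lmFit, eBayes), with 8 residual and 3.9 prior degrees of freedom, and the procedure was tested on simulated data. P-values measure the spread between these arrays. Alternatives were other scaling, background and offset, the authors' table, other probe filters and summaries, a block on the replicate number, the compared groups alone, and leaving out each of the 12 arrays. Deviations of same-numbered arrays correlated at 0.129 to 0.239 for the WT response and fell below 0.1 in at least 1 pair elsewhere. Values were given on every array for tested genes called in at least 1 comparison and for tested Timps, and, chosen after its values were seen, for Mmp11. Genes of the surrounding lists were named from the 4 called with the smallest p in a comparison, or from the 2 with the smallest p where none was called. Not all of these are named. The values of Reck, Plat and Fosl2 in the other comparisons were added after they were seen. The genes and lists were chosen with earlier results of these data known. Symbols with a letter after the digits, such as Mmp1a, were left out, and Adamts2, Adamts5, Mmp15 and Mmp27 are not analysed here.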

Additional observations from a re-analysis of the deposited data

How the results depend on the processing

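The count of called members with rosiglitazone and the WT receptor, 11, was 8 to 13 under all 22 alternatives and 9 to 12 when 1 array was left out. With E157D the count of 1 became 0 with each array scaled to its median or with no filter on probes, 2 with the authors' processed table or probes detected on all 12 arrays, 3 with an offset of 50, and 4 with no background correction or with the replicate block, and ran from 0 to 2 when 1 array was left out. Between the receptors in DMSO the count of 0 became 1 with the replicate block and stayed at 0 without any single array. The other member counts in this paragraph stand without the share of all features called in the same setting. For those, a general shift in calls is not separated from one of the members. Between the receptors under rosiglitazone the count of 5 became 3 with no filter on probes or with only the compared groups fitted, 9 with the replicate block, and 2 to 7 when 1 array was left out. For the difference of responses the count of 0 became 1, which was Timp2, with no background correction, an offset of 50, the authors' processed table, probes detected on all 12 arrays or the replicate block (adjusted p = 0.017), and was 0 to 1 when 1 array was left out. The WT protease minus inhibitor difference of 0.67 became 0.44 with probes detected on all 12 arrays and 0.52 with the mean over a gene's kept probes, and 0.56 to 0.75 without 1 array. That of E157D, 0.07, became -0.11 with probes detected on all 12 arrays, and 0.02 to 0.14 without 1 array. The probe filter leaves fewer proteases, 10 of 17; the cause of the other moves was not tested. Of 1298 values of the 12 named genes under alternatives, 1190 kept their direction and call, 55 lost a call, 25 gained one and 28 changed sign, none of them called in either setting. The sign changes lay in 10 comparisons of a gene, each at most 0.14 in size as reported. For E157D against WT in DMSO, median scaling gave 0.07 for Timp1 and Timp2, the authors' table gave -0.01 for Adamts16 and Adamtsl4, and no background correction or an offset of 50 gave 0 for Adamts16. Under rosiglitazone, Adamts4 became 0.21 with median scaling and 0 with the authors' table, which gave -0.01 for Mmp24. Without 1 array, the DMSO values ran from -0.12 to 0.09 for Timp1, -0.06 to 0.09 for Timp2, -0.02 to 0.32 for Timp3, -0.1 to 0.18 for Mmp2, -0.19 to 0.16 for Adamts16 and -0.09 to 0.11 for Adamtsl4. Those under rosiglitazone ran from -0.18 to 0.11 for Adamts4 and -0.17 to 0.21 for Adamts7, and the E157D response of Adamts16 from -0.24 to 0.03. Median scaling moved the median of all features to 0.17 for E157D against WT under rosiglitazone and to 0.12 in DMSO. Relative to that median, under rosiglitazone Timp2 stood at 0.76, Timp3 at 0.89 and Adamts12 at 0.75. It also moved the share of calls that were higher from 46% to 55.9% for the WT response, 56.3% to 77.9% for E157D, 37.7% to 55.6% in DMSO and 53.2% to 77.4% under rosiglitazone. Genes near the detection limit, such as Mmp23 and Adamts16, give at most a bound where a compared group is below detection.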

Other observations

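Mmp1a, which the choice by digits leaves out, had 3 probes, detected on 12, 8 and 0 arrays. By the probe detected on all 12 arrays, the only one given here, Mmp1a lay at log2 intensities from 6.64 to 7.22. It changed by -0.04 ± 0.18 under rosiglitazone with E157D (limma, adjusted p = 0.94) and by 0.01 ± 0.18 with WT (adjusted p = 0.985). It is one of 10 Mmp genes that neighbour each other on chromosome 9 in the RefSeq table, of which 9 have a probe, 15 probes in all, and Mmp1a was the only gene of the 9 to pass the detection filter.

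Across all groups, 11 of 12 arrays correlated best with an array of another group that had their own replicate number, at 0.017 to 0.255 between same-numbered arrays. With the replicate number as a block, Mmp9 was called in the 4 comparisons of groups. It was lower under rosiglitazone with E157D (adjusted p = 0.0147) and with WT (adjusted p = 0.000347), and higher in E157D than in WT arrays under rosiglitazone (adjusted p = 0.000433) and in DMSO (adjusted p = 0.0331).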
